A study of Mus musculus with 8 samples.

Results

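The CDK inhibitors and the D cyclins are the 10 mouse genes Cdkn1a, Cdkn1b, Cdkn1c, Cdkn2a, Cdkn2b, Cdkn2c, Cdkn2d, Ccnd1, Ccnd2 and Ccnd3. They were chosen by name, and each is described by every probe set that the array annotation assigned to that gene alone: 22 of the 45037 probe sets, for 10 of 18193 genes. The samples came from the fetal gonads of C57BL6/J-Tg92 mice at embryonic day 13, in 4 groups of 2 arrays. EGFP-positive cells sorted from XX gonads are the pre-granulosa cells of the labels and those sorted from XY gonads the Sertoli cells, about 30000 and about 22000 cells per sample. The other groups were whole ovaries (XX) and whole testes (XY), with 4 gonads pooled per sample and no sorting. All 4 groups carried the same transgene and none had a treatment. The labels do not name the promoter of the transgene. As background, in Tg92 a fragment of the Sry promoter drives EGFP, so the sorted populations are the cells in which that fragment was active, in either sex. Nothing in the labels ties replicates to separate litters or animals, so each p-value measures only the spread between these samples, which may be technical.

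As background, the D cyclins Ccnd1, Ccnd2 and Ccnd3 bind the kinases CDK4 and CDK6 and start the phosphorylation of the retinoblastoma protein, which frees E2F factors and opens S phase. The INK4 inhibitors (Cdkn2a to Cdkn2d) bind CDK4 and CDK6 and keep them from the D cyclins. The CIP/KIP inhibitors (Cdkn1a to Cdkn1c, which encode p21, p27 and p57) block the cyclin E and cyclin A kinases. In the fetal gonad Sertoli cells divide as the testis cords form, while pre-granulosa cells are known to leave the cycle and to hold p27 protein. XY germ cells enter their own arrest at about this stage, and XX germ cells enter meiosis.

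Values are log2 RMA expression as deposited. The 4 sorted-cell arrays shared 1 distribution of ranked values (largest difference 0.18) and the 4 gonad arrays another (0.15), with medians of 5.58 and 5.97, so the sets appear to have been normalized separately. XY minus XX differences were therefore taken within a set. Differences between sorted cells and gonads were computed after each array had been centred on its own median, and still rest on 2 separate normalizations. A difference is called where the adjusted p of limma over all 45037 probe sets is 0.01 or less. Replicates of the 22 probe sets had a root mean square standard deviation of 0.40 in the pre-granulosa group and 0.41 in the Sertoli group, against 0.13 (ovary) and 0.22 (testis), and the fit pools these spreads. Dhh, the Sertoli hedgehog ligand, was called higher and Foxl2, the granulosa transcription factor, lower in both XY minus XX comparisons. Of 8 Sertoli genes 5 were called higher in sorted cells and 4 between organs, and of 8 pre-granulosa genes 4 and 2 were called lower. Sox9, which drives Sertoli fate, read 9.46 and 10.56 in pre-granulosa against 11.53 and 11.95 in Sertoli cells and was not called (adjusted p = 0.0541), and the summed linear signal of the Sertoli genes was 1519 and 3050 in pre-granulosa cells against 783 and 931 in ovaries. The part of this signal in the results was not tested. In XX arrays the highest reading of Eif2s3y, Kdm5d or Uty, which are encoded on the Y, was 4.78, used here as a background level; it is approximate because background differs between probe sets. Sorted samples held little germ cell signal: Ddx4, an RNA helicase of germ cells, read 3.13 and 3.75 in pre-granulosa and 3.40 and 4.66 in Sertoli cells, against 10.89 and 10.85 in ovaries and 10.66 and 10.62 in testes.

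Cdkn1b, which encodes p27, had the largest XY minus XX difference in this gene group, on 1 of its probe sets. On probe set 1419497_at it read 12.34 and 13.06 in pre-granulosa cells, 8.41 and 7.64 in Sertoli cells, 11.26 and 11.20 in ovaries, and 10.12 and 9.30 in testes. Every XX array was above every XY array, in sorted cells and in gonads alike. In Sertoli cells it was 25.4-fold lower than in pre-granulosa cells (log2 difference -4.67 ± 0.40, SE, n = 2 against 2; 95% interval -5.64 to -3.70; adjusted p = 0.00317). It was the 1 member called of 22 in that comparison (4.55%), beside 1.81% of all probe sets called. The call was lost when either Sertoli array was left out and when any ovary or testis array was. It was kept when either pre-granulosa array was left out. Each omission leaves fewer degrees of freedom, and the cause of the losses was not tested. Over all of these omissions the difference ran from -5.05 to -4.28. With only the 4 sorted arrays in the fit the adjusted p was 0.0772, and with a weight per group it was 0.0162. The call was lost under both of these settings. Between whole organs the difference on this probe set was -1.52 ± 0.40 (testis minus ovary, adjusted p = 0.251), which was not called.

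The other Cdkn1b probe set, 1434045_at, has the higher mean and showed a smaller difference in the same direction. It read 12.13 and 13.02 in pre-granulosa cells, 11.29 and 10.72 in Sertoli cells, 12.54 and 12.45 in ovaries, and 12.07 and 12.17 in testes. The pre-granulosa arrays lay above the Sertoli arrays, and the ovary arrays above the testis arrays by a small margin. The Sertoli minus pre-granulosa difference was -1.57 ± 0.33 (adjusted p = 0.0510) and the testis minus ovary difference -0.37 ± 0.33 (adjusted p = 0.883), neither called. So the probe sets of Cdkn1b give the same order of sexes with sizes of 25.4-fold and 2.96-fold in sorted cells. With the probe sets averaged, Cdkn1b was called at -3.12 (adjusted p = 0.00245 over 18193 genes).

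The 250 bases before the Cdkn1b start site (RefSeq, GRCm38.p6, plus strand, chr6:134920151-134920400) are shown because a probe set of this gene was the only member called between the sorted cell types. The capitals mark matches, on either strand, to the GC box GGGCGG bound by SP factors and to the CCAAT box.
Cdkn1b: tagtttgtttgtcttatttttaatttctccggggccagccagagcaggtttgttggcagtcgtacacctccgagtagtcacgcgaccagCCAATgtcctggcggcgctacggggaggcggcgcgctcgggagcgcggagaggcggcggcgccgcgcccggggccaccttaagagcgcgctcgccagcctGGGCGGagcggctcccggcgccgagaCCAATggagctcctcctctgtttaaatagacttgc
The window holds 1 GC box, starting 61 bases before the start site, and 2 CCAAT boxes, at 161 and 35 bases before it. Of all 32851 promoter windows of this length in the same table, 32.7% hold a GC box and 33.8% a CCAAT box, so neither is rare. No match was found there to TATAAA (12.4% of windows), to the forkhead core TGTTTAC (3.17%) or to the E2F cores TTTCGCG (0.703%) and TTTGGCG (1.26%), which says only that these letters are not in this window. Promoter entries were matched by symbol for 7 of the 10 members, and Cdkn1c, Ccnd1 and Ccnd2 had none.

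**Figure D1:**
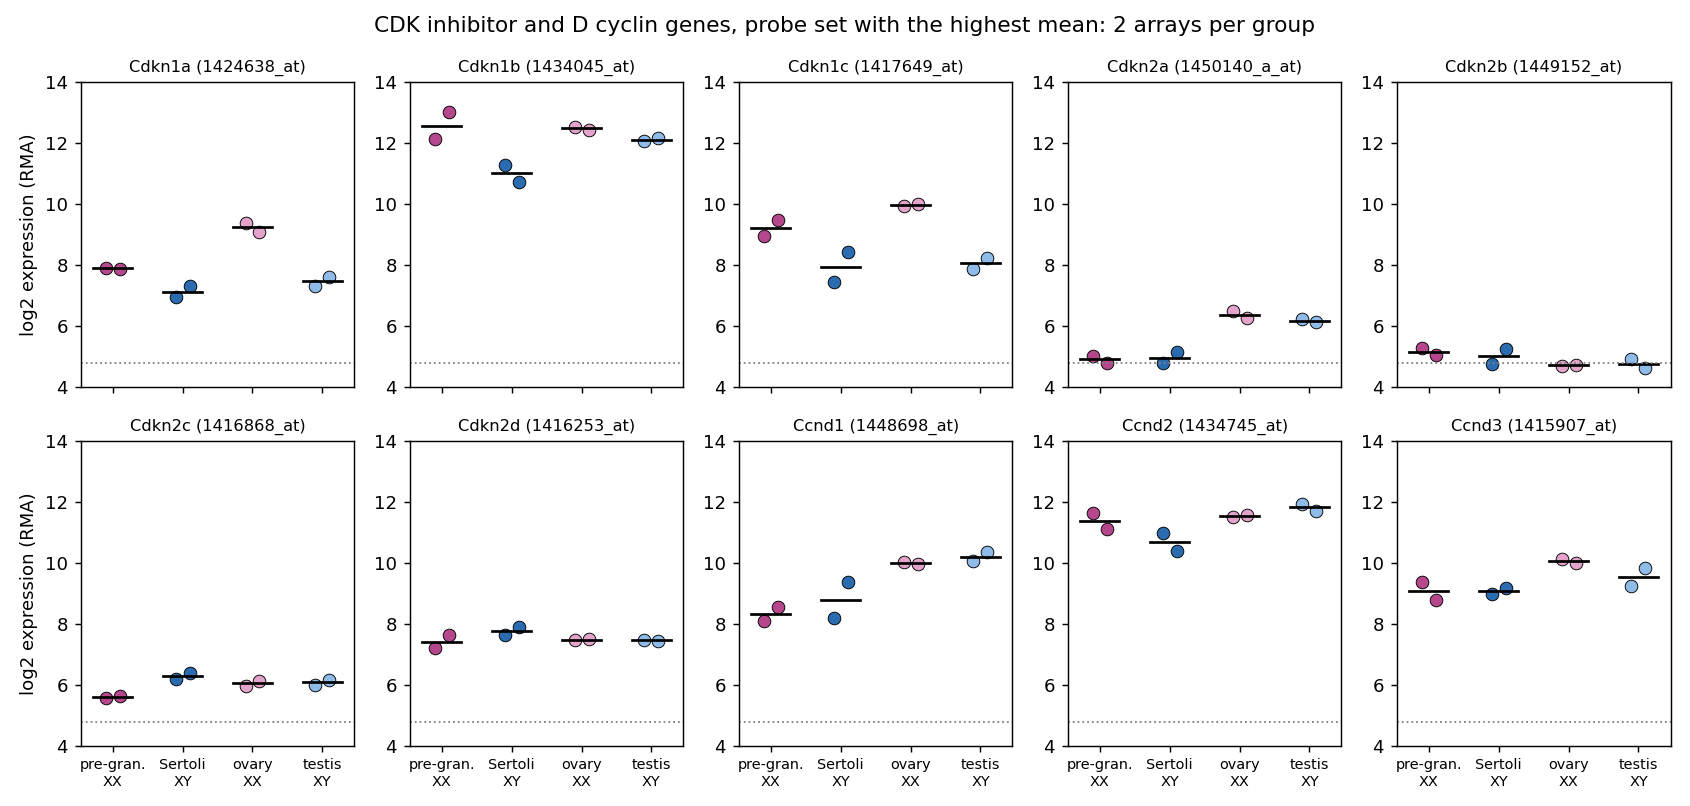
Log2 RMA expression (vertical axis, same scale in each panel) of the 10 genes on their probe set with the highest mean, in the 4 groups (horizontal axis); points are the 2 arrays of a group, bars their mean, and the dotted line the background level of 4.78. The CIP/KIP genes in the upper row sit higher in both XX groups than in the XY group of the same set, while Cdkn2a and Cdkn2b lie near the dotted line in sorted cells.

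Cdkn1a encodes p21, the inhibitor that p53 induces after DNA damage. On 1424638_at it read 9.39 and 9.09 in ovaries against 7.32 and 7.61 in testes, and 7.89 and 7.88 in pre-granulosa cells against 6.97 and 7.30 in Sertoli cells. The XX arrays were the higher ones in both sets, with no overlap. The testis minus ovary difference was -1.78 ± 0.20 (3.42-fold, adjusted p = 0.0218) and the Sertoli minus pre-granulosa difference -0.76 ± 0.20 (1.69-fold, adjusted p = 0.0919). Neither was called, although the first had the lowest adjusted p of the members between organs. It was called with a weight per group, which allows the gonad arrays their smaller spread (adjusted p = 0.00410). The second probe set, 1421679_a_at, gave -0.51 ± 0.17 between organs and -0.12 ± 0.17 between sorted cells (adjusted p = 0.407 and 0.804). Of 9 other p53 target genes measured, 0 were called between organs by limma (2 had an unadjusted p under 0.05). Their differences were mixed in sign, 5 of 9 positive, with a median of 0.40. The part of p53 in the Cdkn1a difference was not tested.

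RefSeq lists 2 start sites for Cdkn1a, and both windows are shown because a probe set does not tell which start a transcript used. They lie on the plus strand at chr17:29090729-29090978 and chr17:29093519-29093768 (GRCm38.p6), and the capitals again mark matches to the motifs searched.
Cdkn1a, first start: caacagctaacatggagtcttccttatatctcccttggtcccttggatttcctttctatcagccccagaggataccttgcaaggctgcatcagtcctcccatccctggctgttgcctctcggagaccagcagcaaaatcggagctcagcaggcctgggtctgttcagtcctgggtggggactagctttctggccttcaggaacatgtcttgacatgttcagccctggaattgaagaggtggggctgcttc
Cdkn1a, second start: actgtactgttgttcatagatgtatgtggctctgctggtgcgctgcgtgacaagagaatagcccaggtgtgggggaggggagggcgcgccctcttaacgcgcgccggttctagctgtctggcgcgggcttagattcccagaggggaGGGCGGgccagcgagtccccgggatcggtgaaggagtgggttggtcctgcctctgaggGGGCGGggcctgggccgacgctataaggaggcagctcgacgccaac
The first window holds none of the 6 motifs and has a GC content of 54%. No p53 binding motif was among those searched. The second holds 2 GC boxes, at 104 and 46 bases before the start, and has a GC content of 64.8%, against 64.4% for the Cdkn1b window.

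Cdkn1c, the imprinted gene of p57, followed the same order. It read 9.93 and 10.01 in ovaries against 7.87 and 8.24 in testes, and 8.94 and 9.49 in pre-granulosa cells against 7.45 and 8.42 in Sertoli cells. All XX arrays were above the XY arrays of their set, by a wide gap between organs and a narrower one between sorted cells. The differences were -1.91 ± 0.36 between organs (3.77-fold, adjusted p = 0.107) and -1.28 ± 0.36 between sorted cells (2.42-fold, adjusted p = 0.112), neither called. Its Sertoli arrays had a standard deviation of 0.68, against 0.05 for the ovary arrays. Across the 5 probe sets of the 3 CIP/KIP genes, then, all 10 XY minus XX differences were negative. The 1 called was in sorted cells, where 1.81% of all probe sets were. Probe sets of the same gene are not independent, and on Cdkn1a 1421679_a_at the sorted arrays overlapped. Of all 22 member probe sets, 16 were negative in sorted cells and 17 between organs.

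**Figure D2:**
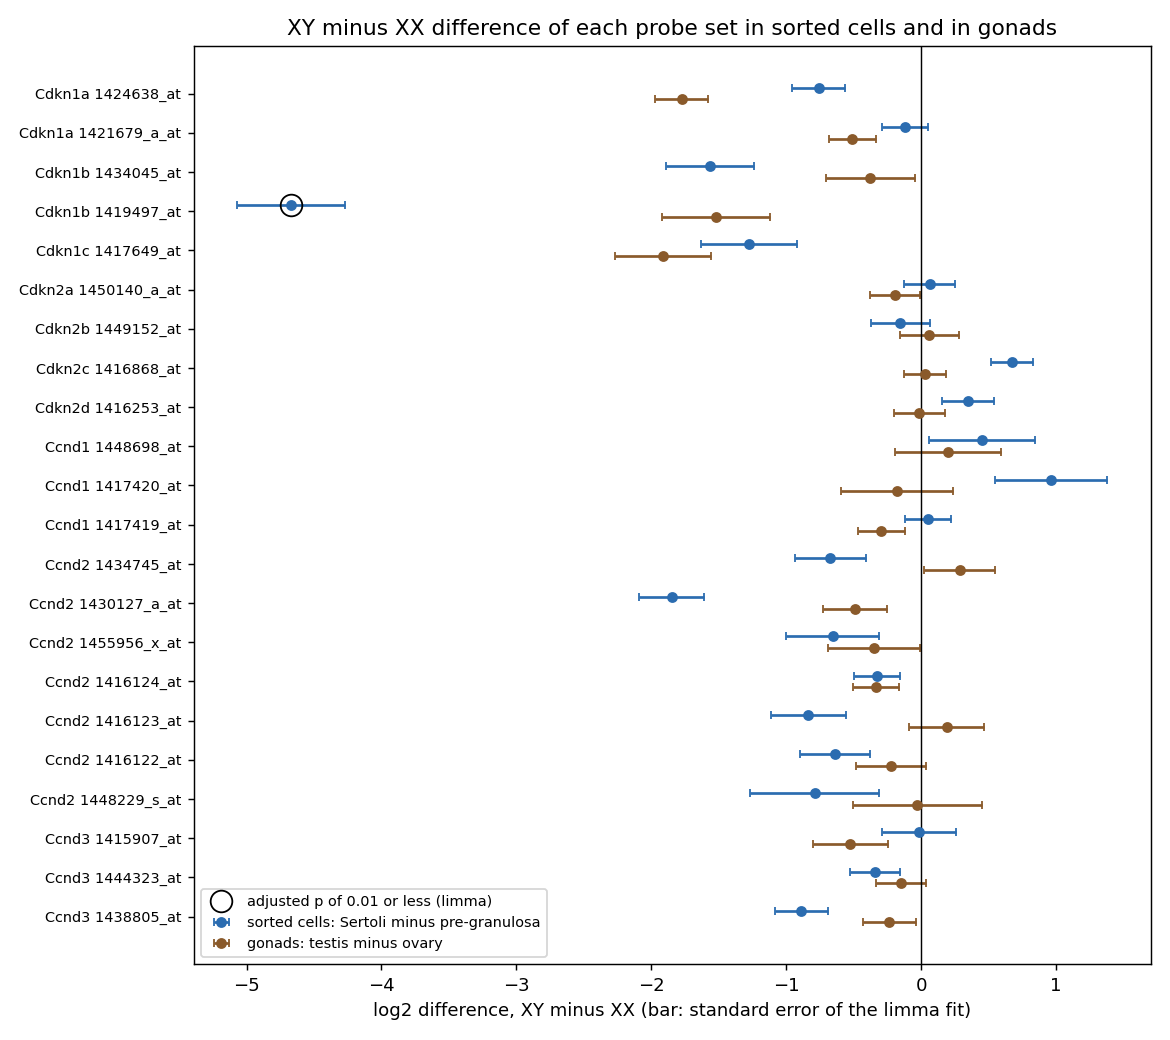
Log2 difference XY minus XX (horizontal axis, points, with the standard error of the limma fit as bars) for each of the 22 probe sets (vertical axis), in sorted cells (blue) and in gonads (brown). Cdkn1b 1419497_at in sorted cells, at -4.67, is the 1 circled point, and the largest differences between organs are those of Cdkn1c and Cdkn1a.

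The INK4 genes showed smaller differences. Cdkn2c, the gene of p18, read 5.57 and 5.65 in pre-granulosa cells, 6.18 and 6.39 in Sertoli cells, 5.97 and 6.13 in ovaries, and 5.996 and 6.16 in testes. Both Sertoli arrays were above both pre-granulosa arrays and the organs overlapped, a direction opposite to that of the CIP/KIP genes in sorted cells. The Sertoli minus pre-granulosa difference was 0.67 ± 0.16 (adjusted p = 0.0680), not called, and testes and ovaries differed by 0.03 (95% interval -0.35 to 0.41). Cdkn2d, the gene of p19 INK4d, read 7.20 and 7.63 in pre-granulosa and 7.63 and 7.89 in Sertoli cells, and from 7.45 to 7.49 over the 4 gonad arrays. Its differences were 0.35 ± 0.19 in sorted cells (adjusted p = 0.418) and -0.01 between organs (95% interval -0.48 to 0.45).

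Cdkn2a and Cdkn2b, which lie side by side on chromosome 4, were dim. Cdkn2a encodes p16 and, from another first exon, the p53 activator ARF, and the annotation does not say which of these transcripts its 1 probe set reads. It read 5.01 and 4.79 in pre-granulosa cells and 4.79 and 5.14 in Sertoli cells, close to the background level, against 6.49 and 6.25 in ovaries and 6.22 and 6.14 in testes. Testes and ovaries differed by -0.19 ± 0.19 (adjusted p = 0.907) and the sorted cells by 0.06 ± 0.19 (adjusted p = 0.918). Cdkn2b, the gene of p15, was not above background in ovaries (4.69 and 4.72), and read 4.92 and 4.61 in testes, 5.28 and 5.03 in pre-granulosa cells and 4.76 and 5.25 in Sertoli cells. Its XY minus XX differences, -0.15 in sorted cells and 0.06 between organs, had standard errors of 0.22 and bear on a gene at or near background in all 4 groups.

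Among the D cyclins, Ccnd2 was the one with a difference between the sorted cell types close to the threshold. On 1430127_a_at it read 11.39 and 11.29 in pre-granulosa cells, 9.76 and 9.22 in Sertoli cells, 9.86 and 9.43 in ovaries, and 9.23 and 9.08 in testes. Both pre-granulosa arrays stood over 1 log2 unit above the other 6. In Sertoli cells it was 3.60-fold lower (-1.85 ± 0.24, adjusted p = 0.0111), just short of a call, and it was called when dim probe sets were removed. The other 6 Ccnd2 probe sets gave Sertoli minus pre-granulosa differences from -0.84 to -0.33, none of them called, so all 7 were negative. The one with the highest mean, 1434745_at, read 11.63 and 11.12 in pre-granulosa, 10.99 and 10.41 in Sertoli cells, 11.51 and 11.58 in ovaries, and 11.94 and 11.72 in testes. Its order was thus XX above XY in sorted cells (-0.67 ± 0.26, adjusted p = 0.238) and XY above XX in gonads (0.29 ± 0.26, adjusted p = 0.894). The test of the difference between these differences was not passed (-0.96 ± 0.37, adjusted p = 0.404). Between organs 2 of the 7 Ccnd2 probe sets were positive and 5 negative, from -0.49 to 0.29, and 0 were called. The suffix x or s of 2 of these probe sets marks possible signal from other transcripts.

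Ccnd1, the D cyclin that many growth signals induce, read 8.10 and 8.57 in pre-granulosa and 8.19 and 9.38 in Sertoli cells on 1448698_at, and 10.04 and 9.97 in ovaries and 10.06 and 10.36 in testes. The sorted groups overlapped, and the organs differed by 0.20 ± 0.39 (adjusted p = 0.982). The Sertoli arrays lay 1.19 log2 units apart, so the Sertoli minus pre-granulosa difference of 0.45 ± 0.39 was not resolved (95% interval -0.50 to 1.41). Its other probe sets gave 0.96 ± 0.41 and 0.05 ± 0.17 in sorted cells, neither called (adjusted p = 0.284 and 0.930). Ccnd3 read 9.39 and 8.80 in pre-granulosa, 8.98 and 9.18 in Sertoli cells, 10.14 and 10.002 in ovaries, and 9.26 and 9.84 in testes on 1415907_at. Its difference was -0.02 ± 0.28 in sorted cells (95% interval -0.69 to 0.66) and -0.53 ± 0.28 between organs (adjusted p = 0.689). The other Ccnd3 probe sets read from 3.89 to 5.31, at or near background. Of these, 1438805_at read 4.82 and 5.31 in pre-granulosa cells and from 3.89 to 4.26 in the other groups, not above background there. It gave -0.89 ± 0.20 in sorted cells (adjusted p = 0.0606) and 1.22 ± 0.20 in pre-granulosa minus ovary (adjusted p = 0.0122), where 1415907_at gave -0.60 ± 0.28 (adjusted p = 0.165). None was called, though the 1.22 was with trend and robust moderation and without pre-granulosa replicate 1.

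**Figure D3:**
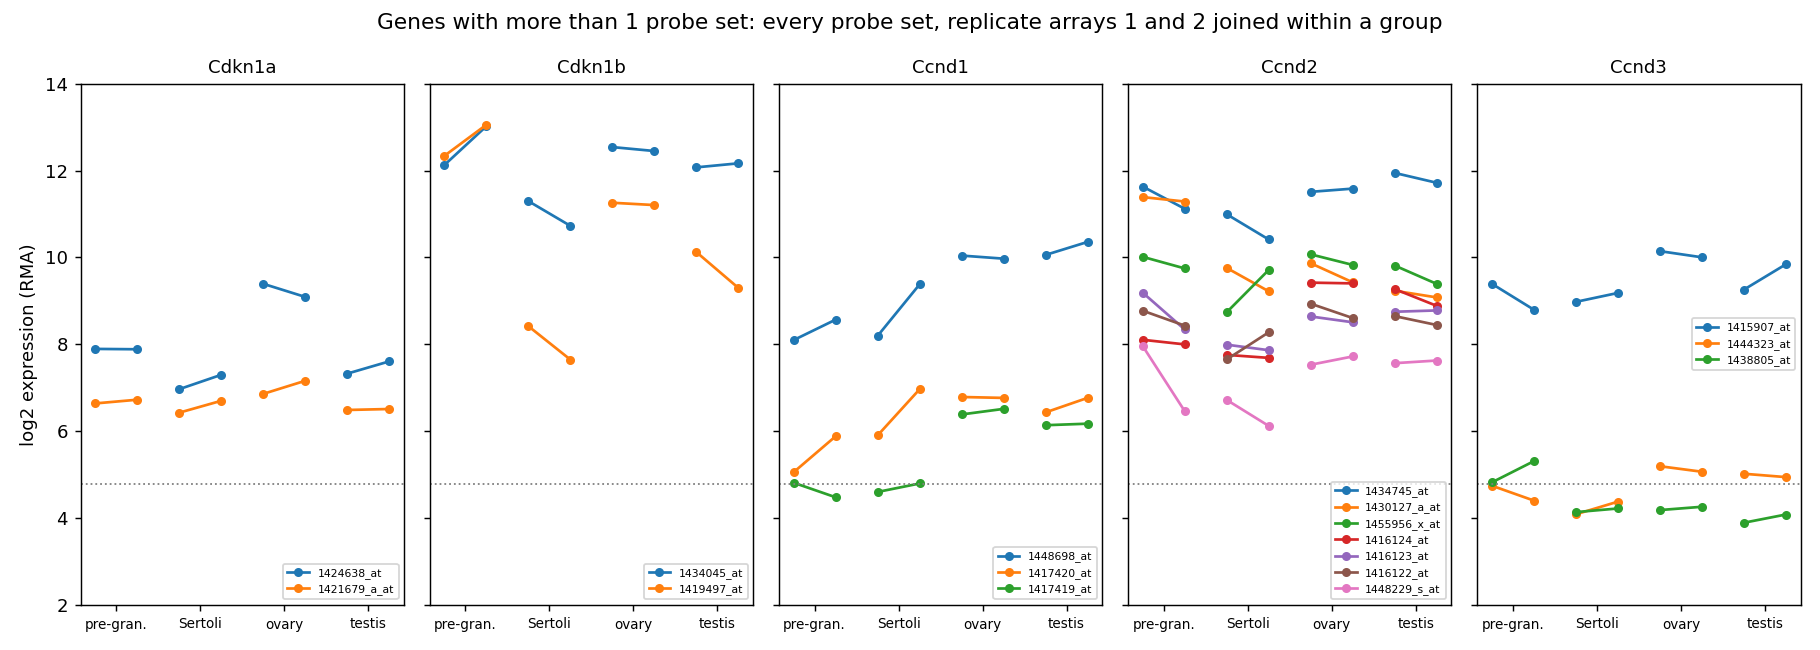
Log2 RMA expression (vertical axis) of every probe set of the 5 genes with more than 1, by group (horizontal axis), with replicate arrays 1 and 2 of a group joined by a line; colours are probe sets and the dotted line is the background level of 4.78. The Cdkn1b probe sets share their order but not their size of difference, and Ccnd2 1430127_a_at is the 1 of 7 on which pre-granulosa cells stand over 1 log2 unit above every other group.

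In the gonads 0 of the 22 probe sets were called in testis minus ovary by limma, beside 0.215% of all probe sets; 4 of the 22 had an unadjusted p under 0.05, beside 9.31% of all probe sets, and 1 was called with a weight per group, beside 0.875%. The median difference of the 10 genes was -0.08 in sorted cells and -0.10 between organs, against 0.04 and -0.04 over all genes. The difference between the Sertoli minus pre-granulosa and the testis minus ovary difference was called for 0 of 22 by limma, as it was for 0% of all probe sets; 7 of the 22 had an unadjusted p under 0.05, beside 11.4% of all probe sets. Among these were Cdkn1b 1419497_at, with a difference larger in sorted cells by -3.15 ± 0.57 (adjusted p = 0.105), and Cdkn1a 1424638_at, with a difference larger in gonads (1.02 ± 0.28, adjusted p = 0.237). In bulk samples such as the gonads, fewer cells of a type and less RNA per cell cannot be told apart.

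Sorted cells were then set against whole gonads of the same sex, on array-centred values; these comparisons share their arrays with those above, so they are not independent of them. Of the 22 probe sets, 1 was called in Sertoli minus testis, beside 6.7% of all probe sets, and 2 in pre-granulosa minus ovary, beside 5.51%. Both shares (4.55% and 9.09%) are of a size with the background. Ccnd1 on 1417419_at was lower in sorted cells on both sides, with differences of -1.06 ± 0.17 (Sertoli minus testis) and -1.42 ± 0.17 (pre-granulosa minus ovary) (adjusted p = 0.00989 and 0.00511). It read 4.81 and 4.48 in pre-granulosa and 4.60 and 4.79 in Sertoli cells, at or near background, against 6.38 and 6.51 in ovaries and 6.14 and 6.17 in testes, so the sizes are close to differences from background. The Sertoli minus testis call was lost under both quantile normalizations and when any Sertoli, testis or ovary array was left out, and the pre-granulosa minus ovary call when any ovary or testis array was. On the highest-mean Ccnd1 probe set the differences were -1.02 ± 0.40 and -1.29 ± 0.40 (adjusted p = 0.103 and 0.0639). Ccnd2 1430127_a_at was 4.21-fold higher in pre-granulosa cells than in ovaries (2.07 ± 0.24, adjusted p = 0.00491), a call lost without pre-granulosa replicate 1 and without any ovary or testis array, while Sertoli cells and testes differed by 0.73 ± 0.24 (adjusted p = 0.0691). Other Ccnd2 probe sets differed in sign: 1416124_at gave -0.98 ± 0.17 in pre-granulosa minus ovary (adjusted p = 0.0132), and 1434745_at gave 0.21 ± 0.26.

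On the centred scale Cdkn1b 1419497_at had the order pre-granulosa, ovary, testis, Sertoli. Pre-granulosa cells and ovaries differed by 1.85 ± 0.40 (adjusted p = 0.0255), ovaries and testes as given above, and Sertoli cells and testes by -1.28 ± 0.40 (adjusted p = 0.0603), so no neighbours in this order passed the test. For Cdkn1a 1424638_at the ovary was highest: pre-granulosa cells were at -0.97 ± 0.20 against it (adjusted p = 0.0230), a difference that was called as deposited, without centring (-1.35, adjusted p = 0.00686), and Sertoli cells and testes differed by 0.06 (95% interval -0.43 to 0.55). Cdkn1c had the order ovary, pre-granulosa, then Sertoli cells and testes, and differed by -0.37 ± 0.36 in pre-granulosa minus ovary and 0.28 ± 0.36 in Sertoli minus testis. Cdkn2a differed between sorted cells and organs by -1.09 ± 0.19 (pre-granulosa minus ovary, adjusted p = 0.0139) and -0.82 ± 0.19 (Sertoli minus testis, adjusted p = 0.0279), neither called, with sorted values near background. As deposited, without centring, both of these Cdkn2a differences were called. Several cell type lists were lower in sorted cells. Of 7 germ cell genes 6 were called lower on both sides, with summed linear signals of 116 to 167 in the 4 sorted arrays against 6314 to 7774 in the 4 gonad arrays. Ddx4, Dazl, Dnd1, Mael and Tdrd1 were not above background in sorted cells, and Tdrd1 was not in gonads either. Of 5 interstitial genes 2 were called lower on both sides, with sums of 464 to 4018 against 15590 to 23640. In Sertoli minus testis 1 of 8 endothelial and 2 of 5 erythroid genes were called lower, and in pre-granulosa minus ovary 2 and 1. Immediate early genes, a sign of stress in dissociated cells, moved the other way, with 4 of 8 called higher in sorted cells on both sides and summed signals of 9378 to 20250 against 5050 to 6566. The part of any of these lists in the differences of Cdkn2a, Ccnd1 and Ccnd2 was not tested.

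The partners of these genes in the G1 phase were read from 3 lists. Cdk4 and Cdk6, the kinases of the D cyclins, were picked for that role: Cdk4 differed by 0.08 ± 0.15 and Cdk6 by -1.26 ± 0.27 in Sertoli minus pre-granulosa (adjusted p = 0.862 and 0.0524), and by -0.09 and -0.60 between organs (adjusted p = 0.975 and 0.587). Cdk6 read 8.99 and 8.83 in pre-granulosa against 8.02 and 7.28 in Sertoli cells. Among the 9 genes of G1 kinases and of cyclins E and A, limma called 0 in Sertoli minus pre-granulosa (2 had an unadjusted p under 0.05), and the largest difference was that of Ccna2, cyclin A2, at 2.75 ± 0.36 (adjusted p = 0.0119). Of 13 pocket protein and E2F genes 1 was called, E2f7, a repressor E2F, at 2.67 ± 0.20 (adjusted p = 0.00217). Tfdp1, a partner of E2F proteins, was at 2.30 ± 1.25 (adjusted p = 0.408). It read 4.89 and 9.18 in pre-granulosa against 8.90 and 9.77 in Sertoli cells, so pre-granulosa replicate 2 lay within the Sertoli range. Of 15 regulators measured 1 was called, Ezh2, the Polycomb methyltransferase that silences the Cdkn2a locus, at 1.61 ± 0.13 (adjusted p = 0.00265). Mycn, a growth-promoting transcription factor, was at 2.19 ± 1.22 (adjusted p = 0.420). Its readings were 5.52 and 9.66 in pre-granulosa against 9.25 and 10.31 in Sertoli cells, with the same overlap in replicate 2. The medians of the 3 lists were 0.44, 0.48 and 0.46, against 0.04 for all genes.

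Between organs limma called 0 genes of these lists (1 of 9, 2 of 13 and 0 of 15 had an unadjusted p under 0.05), with medians of -0.09, 0.19 and 0.21 for the lists against -0.04 for all genes. The largest differences were those of Fbxw7, a ubiquitin ligase subunit that targets cyclin E, at 1.29 ± 0.69, E2f7 at 1.09 ± 0.20 and the pocket protein Rbl1 at 1.02 ± 0.32 (adjusted p = 0.698, 0.106 and 0.354). Against testes, Sertoli cells had lower E2f8 (-3.25 ± 0.49), Cdk2 (-2.77 ± 0.25) and E2f7 (-1.37 ± 0.20), and no other gene of the lists was called. The largest differences not called were Fbxw7 (-3.44), Tbx2 (-2.52) and Ccne2 (-2.23). Against ovaries, pre-granulosa cells had lower E2f8 (-4.67 ± 0.49), Ccna2 (-3.45 ± 0.37), E2f7 (-2.97 ± 0.20), Cdk2 (-2.15 ± 0.25), Ezh2 (-1.57 ± 0.13) and Cks1b, a cofactor of p27 breakdown (-1.46 ± 0.21). Cdk2 read 4.41 and 4.604 in pre-granulosa cells, not above background, and 4.40 and 4.99 in Sertoli cells. E2f8 (4.33 and 5.21) and E2f7 (4.65 and 4.91) were at or near background in pre-granulosa cells. For these genes the sizes that involve pre-granulosa cells are thus close to differences from background, that of E2f7 between the sorted cells included. The same holds for Cdk2 in Sertoli minus testis. In Sertoli cells E2f7 (7.64 and 7.26) and E2f8 (7.07 and 5.71) were above background. In pre-granulosa minus ovary the largest differences not called were Tfdp1 (-3.89), Mycn (-3.23) and Ccne2 (-2.56). Tfdp1 and Mycn read far lower in pre-granulosa replicate 1 than in replicate 2, so their sizes depend much on that array.

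Genes of later phases were read in the same samples. Of 9 G2 and M phase genes 7 were called higher in Sertoli cells, with a median of 2.98, and of 10 S phase genes 1 was, with a median of 1.38. Mki67, the proliferation marker, read 7.33 and 9.05 in pre-granulosa against 11.70 and 12.16 in Sertoli cells (3.73 ± 0.53, adjusted p = 0.0148), and Ccnb2, a mitotic cyclin, 4.89 and 5.21 against 8.71 and 9.32. These differences had the opposite sign to that of Cdkn1b. Between organs the G2 and M list had a median of 0.21 with 0 of 9 called by limma and 0 with an unadjusted p under 0.05. The 3' probe sets of actin and Gapdh exceeded the 5' ones most in pre-granulosa replicate 1, by 3.08 and 3.68 log2 units, against 1.24 to 2.69 over both controls in the other sorted arrays. Over the omission of each array in turn the Sertoli minus pre-granulosa difference of Cdkn1b 1419497_at ran from -5.05 to -4.28. The part of RNA quality in it was not tested.

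**Figure D4:**
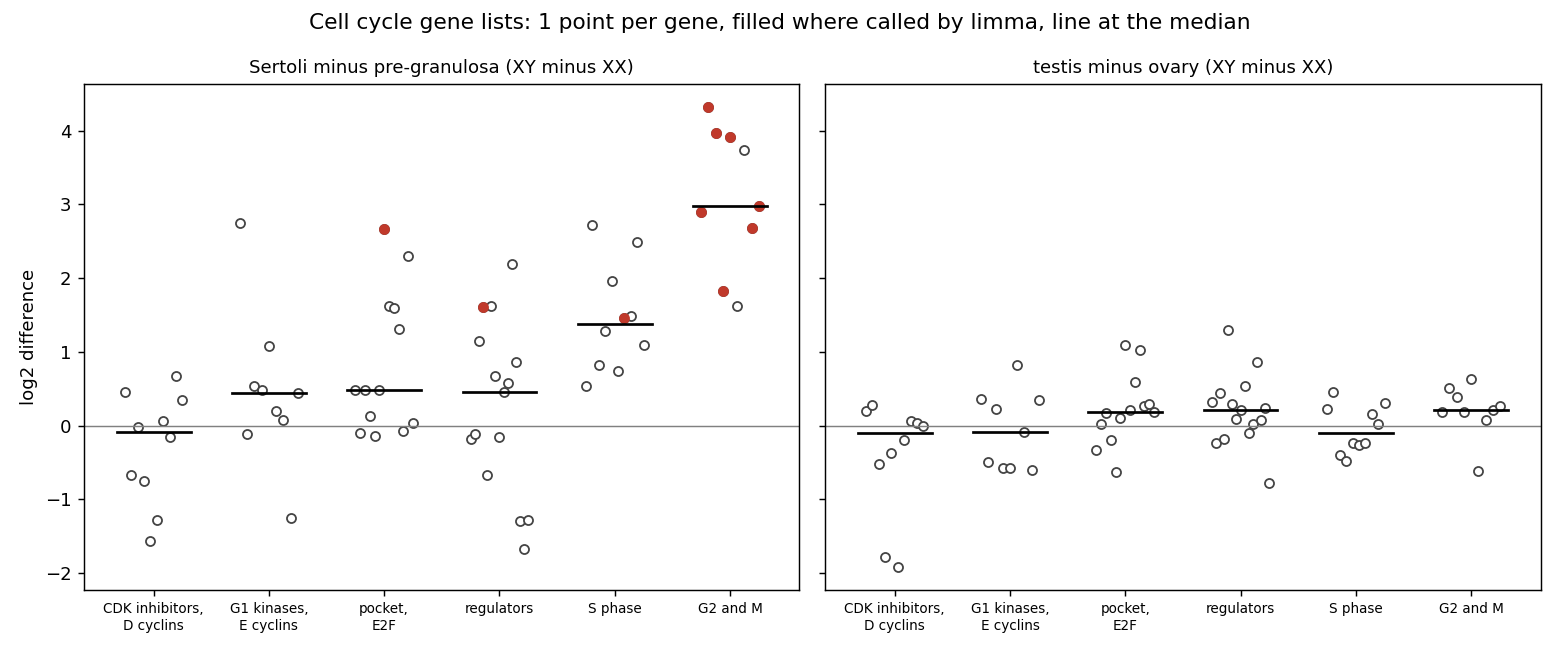
Log2 difference XY minus XX (vertical axis) of the 10 members on their highest-mean probe set and of 5 cell cycle gene lists (horizontal axis), in sorted cells (left) and gonads (right); each point is a gene, filled where called by limma, and bars are medians. In sorted cells the G2 and M list has a median of 2.98 and the members one of -0.08, and in gonads no point is filled.

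Other cell types were followed through their markers in the same samples. The summed linear signal of 8 macrophage genes was 339 and 396 in pre-granulosa against 1070 and 4313 in Sertoli samples, and that of 8 endothelial genes 276 and 565 against 584 and 747. Of these, 1 macrophage and 1 endothelial gene were called higher in Sertoli samples. The 4 Leydig cell genes summed to 900 and 634 against 1826 and 3115 in sorted samples, with 0 called by limma (all 4 had an unadjusted p under 0.05), and to 746 and 676 in ovaries against 12000 and 10200 in testes, with 3 called. Of 5 interstitial genes 0 were called in either XY minus XX comparison by limma (1 in sorted cells and 2 between organs had an unadjusted p under 0.05), and pre-granulosa replicate 1 summed to 464 against 3666 to 4018 in the other sorted samples. Erythroid genes summed to 3124 in that array and from 1276 to 1475 in the other sorted samples. The part of these cells in the differences of the CDK inhibitors was not tested.

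The genes whose values over the 8 arrays were most like those of a called member, by Pearson r on centred values among 11329 genes, are given as a description. For Cdkn1b 1419497_at they were Polr2g, a subunit of RNA polymerase II (r = 0.990), Qsox1, a sulfhydryl oxidase (0.989), and Frmd6 (0.980). Frmd6 read 10.27 and 10.18 in pre-granulosa cells, 6.52 and 6.41 in Sertoli cells, 9.29 and 9.29 in ovaries and 8.51 and 8.12 in testes. For Ccnd2 1430127_a_at they were Tsc22d3, a glucocorticoid-induced gene (0.987), Lca5l (0.985) and Spef1l (0.984). For Ccnd1 1417419_at they were Pou5f1, a pluripotency factor of germ cells (0.997), Snrpc, a spliceosome protein (0.994), and Map7d2 (0.994). The 8 arrays share 4 groups and 2 normalizations, so these values have few independent points.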

How the data were processed

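The 8 samples, 2 each of sorted pre-granulosa cells, sorted Sertoli cells, ovaries and testes, were read on Affymetrix mouse whole-genome expression arrays, per the labels from about 20 ng of RNA and 2.5 µg of labelled cDNA each. The deposited values are log2 expression, made with RMA (version not given in the sources used here) per the submitters' processing notes; scan files were not used here. The series text names R/maanova, whose results were not used. Of 45101 probe sets, 64 controls were left out and 45037 were tested, of which 34945 had 1 gene symbol, 932 several and 9160 none. Genes are counted, and list genes described, by whichever of their probe sets has the largest 8-array mean. Where another probe set of a member showed the larger difference, as for Cdkn1b and Ccnd2, that one was described first. By the probe set with the largest mean, 0 of the 10 members were called in any of the 5 comparisons, beside 0% to 6.7% of all probe sets. limma 3.58.1 in R 4.3.3 was fitted with 1 mean per group over all 8 arrays (lmFit, eBayes, two-sided, Benjamini-Hochberg over all probe sets, called at 0.01, 4 residual degrees of freedom), on array-centred values for sorted minus gonad comparisons. An exact permutation test of 2 against 2 arrays cannot go below p = 0.333, so none was used. The procedure was tested on simulated data. Symbols of the 10 members matched RefSeq (GRCm38.p6) by gene identifier. No probe set of a member carried several symbols. Some genes of the lists are not reported here.

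The members and lists were chosen with earlier results of these data known. Named besides the members were, per comparison, up to 6 called and 3 not called genes of the G1 lists by size, Cdk4 and Cdk6 for their role, fixed identity markers, and the 3 genes most like each called member (mean of 6 or more). Alternatives were other normalizations and centring, removal of dim probe sets, other moderation, weights, a replicate block, a threshold of 0.05, averaged probe sets and omission of each array.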

Additional observations from a re-analysis of the deposited data

How the results depend on the processing

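Precision is limited by having 2 arrays a group. The 4 called differences of members kept their direction under all 17 other settings run on each. Under many of these the direction could not change. Moderation, weights, the replicate block, removal of dim probe sets and omission of arrays outside a comparison leave the difference itself as it was. So does a fit of only the groups compared. Of the 17 settings the call held in 8 (Cdkn1b, Sertoli minus pre-granulosa), 5 (Ccnd1, Sertoli minus testis), 10 (Ccnd1, pre-granulosa minus ovary) and 9 (Ccnd2, pre-granulosa minus ovary). The adjusted p of Cdkn1b ranged from 0.00180 to 0.0772.

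Counts are of member probe sets, with the share of all probe sets called in brackets; genes are counted by their highest-mean probe set alone. For Sertoli minus pre-granulosa, 1 was called (1.81%), 2 with dim probe sets removed (3.64%) or at a threshold of 0.05 (5.5%), and 0 without moderation (0.0289%), with a weight per group (0.586%) or with only the groups compared, where 0% of all probe sets were called. With averaged probe sets 1 gene was called, Cdkn1b, beside 4.14% of all genes. Over the omission of each array the Cdkn1b difference ran from -5.05 to -4.28. For testis minus ovary, 1 was called with a weight per group (0.875%) or at 0.05 (0.708%), which is also 1 gene. For Sertoli minus testis, 0 were called under quantile normalization over all arrays (5.48%) or within sets (6.46%) and with dim probe sets removed (9.44%). The count was also 0 without moderation (1.53%), with only the groups compared (5.08%) and with the replicate block (2.17%). It was 3 as deposited (8.64%, 1 by highest-mean probe set) and 5 at 0.05 (25.9%, 3 by highest-mean probe set). For pre-granulosa minus ovary, 5 were called as deposited (8.28%, 2 by highest-mean probe set) and 3 with trend and robust moderation (7.25%). The count was 0 without moderation (0.653%) or with only the groups compared (0%). It was 1 with a weight per group (2.44%), 1 with the replicate block (2.06%) and 8 at 0.05 (22%, 3 by highest-mean probe set). With averaged probe sets 1 gene was called, Cdkn2a, beside 7.46% of all genes. Cdkn2a has 1 probe set, so its difference was the same -1.09 as in the main fit. A cause of these changes was not tested, and each omission also leaves fewer samples. The difference of differences had 0 members called under every setting run.

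Replicate numbers are shared across groups, and the deviations of same-numbered arrays correlated from -0.156 to 0.0493. The labels do not say whether same-numbered samples share more than a number, and these correlations cannot decide it. With the number as a replicate block, Sertoli minus pre-granulosa kept 1 member called, and 341 in place of 816 of all probe sets were called.

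None of the differences that changed sign was called. In Sertoli minus pre-granulosa they were Ccnd3 (0.017 with other centring), and over omissions Ccnd3 (from -0.31 to 0.28), Cdkn2a (from -0.11 to 0.24), Cdkn2b (from -0.40 to 0.091), Ccnd1 1448698_at (from -0.14 to 1.05) and Ccnd1 1417419_at (from -0.12 to 0.22). In testis minus ovary they were Cdkn2d (0.0024 and 0.0028 with quantile normalization over all arrays and within sets, 0.0040 with centring), Ccnd1 (-0.091) and Ccnd2 (-0.14) with averaged probe sets, and over omissions Cdkn2b (from -0.095 to 0.21), Cdkn2c (from -0.052 to 0.12) and Cdkn2d (from -0.027 to 0.0039). In Sertoli minus testis, as deposited, Cdkn1a was at -0.33 and Cdkn1c at -0.12, Ccnd3 was at 0.11 with quantile normalization over all arrays and 0.055 with averaged probe sets, and over omissions Cdkn1a ran from -0.10 to 0.23, Cdkn1c from -0.21 to 0.77 and Ccnd3 from -0.37 to 0.23. In pre-granulosa minus ovary, as deposited, Cdkn2d was at -0.066 and Ccnd2 at -0.17, Ccnd3 was at 0.15 with averaged probe sets, and over omissions Ccnd2 ran from -0.036 to 0.46 and Cdkn2c from -0.12 to 0.012. In the difference of differences Ccnd3 was at -0.11 with averaged probe sets, and over omissions Cdkn2b ran from -0.46 to 0.031 and Ccnd1 from -0.34 to 0.85.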
